A study of Mus musculus with 2 samples.

Results

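Hippo pathway genes were compared between small hepatocytes (SHs), which the labels describe as intrinsic progenitors of hepatocytes, and mature hepatocytes (MHs) of the adult mouse liver. The 10 genes were Yap1, Wwtr1, Tead1, Stk3, Stk4, Lats1, Lats2, Ctgf, Cyr61 and Amotl2. They were chosen by name and matched by symbol among the 43280 genes of the deposited counts, where all 10 were found. Poly(A) RNA of 1 sample of each cell type was sequenced, both from C57BL6 mice whose age the labels give as 20 weeks, although the methods give a younger age for the mice of the study. No genetic change or treatment of the mice is named for either sample. Both cell types were isolated by collagenase perfusion from the same livers, and the methods state that several mice contributed. MHs were freed of dead cells on Percoll and were not sorted. SHs were sorted as CD31-, CD45- and EpCAM-negative and ICAM-1-positive cells.

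The Hippo pathway is a kinase cascade that holds back tissue growth. MST1 and MST2, encoded by Stk4 and Stk3, activate LATS1 and LATS2, which phosphorylate the coactivators YAP and TAZ and keep them out of the nucleus. When the kinases are inactive, YAP and TAZ enter the nucleus and drive transcription with TEAD factors, with Ctgf, Cyr61, Amotl2 and Lats2 among the best known targets. In the liver, the pathway is known for the control of organ size, and YAP activity is high in cholangiocytes and low in most hepatocytes. Ctgf and Cyr61 are also expressed by endothelial and stellate cells.

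A total of 16979136 reads were counted in MHs and 42356444 in SHs. A level of 3 reads, taken as the floor, was 0.177 reads per 1000000 counted reads (RPM) in MHs and 0.0708 RPM in SHs. Hepatocyte genes were abundant in both libraries, as seen for Hnf4a, with 10753 reads in MHs and 27488 in SHs. There was 1 library per condition, so no test between conditions was possible. The 95% Clopper-Pearson intervals of the log2 ratios of SHs over MHs cover counting error only.

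The levels of the 10 genes went in both directions. Cyr61 was lower in SHs, Ctgf was close to absent there, Yap1 was slightly higher and Wwtr1 was slightly lower. A gene was called lower or higher when its interval lay wholly on that side of 0 and its level differed at least 1.5-fold. By this rule, Cyr61 and Ctgf were lower and 0 of the 10 were higher. Ctgf reached 10 reads through MHs, where it was higher, so its call is a description only. Among the 15521 genes of the series that reached 10 reads over both libraries, 6.2% were lower and 3.5% were higher by the same rule. The median log2 ratio of the 10 genes was -0.02, and that of all 15521 genes was 0.02. For 6 of the 10 genes the interval included 0. Fewer cells of a type and less RNA per cell cannot be told apart in such bulk samples.

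**Figure D1:**
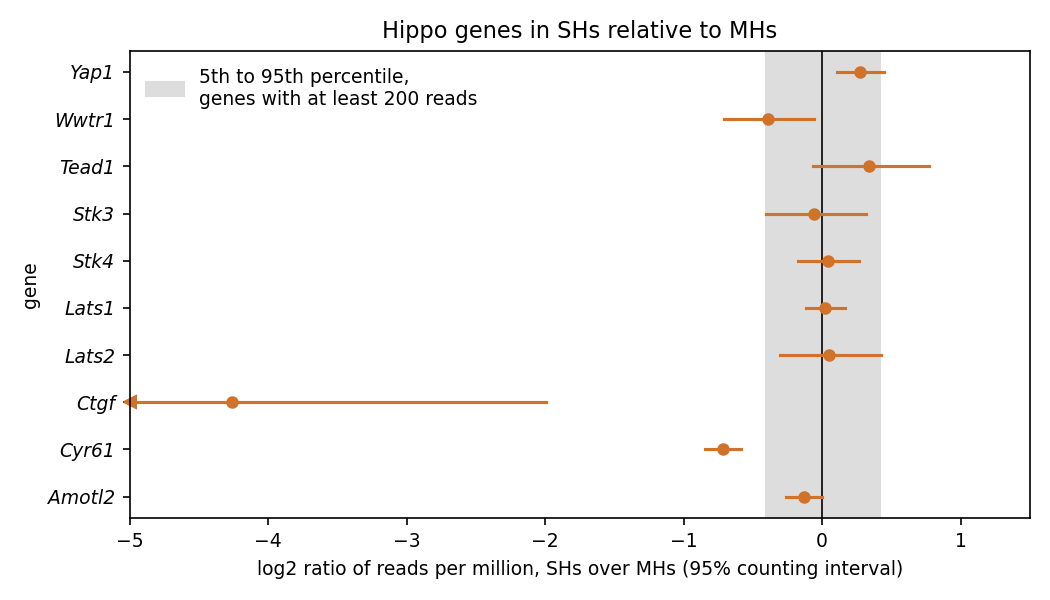
Log2 ratio of RPM, SHs over MHs, on the x axis for the 10 Hippo genes, with 1 library per condition. Points are the ratios and lines their 95% counting intervals, and the grey band runs from -0.40 to 0.42, the range between the 5th and 95th percentiles of genes with at least 200 reads. Cyr61 and Ctgf lie left of the band, and the lower end of the interval of Ctgf, at -10.21, runs out of the plot.

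The coactivators YAP and TAZ, encoded by Yap1 and Wwtr1, moved in opposite directions. Yap1 was counted with 376 reads in MHs and with 1138 in SHs, which were 22.1 and 26.9 RPM. Its log2 ratio was 0.28 (95% interval 0.11 to 0.45), a 1.21-fold higher level in SHs. Wwtr1 was counted with 120 reads in MHs and with 229 in SHs, which were 7.07 and 5.41 RPM. The log2 ratio was -0.39 (-0.71 to -0.06). Neither gene reached 1.5-fold. An interval wholly above 0, at any fold, was found for 16.8% of all genes tested, and one wholly under 0 for 15.5%, so such intervals were not rare. By size of the ratio, 5.4% of the genes with at least 200 reads were lower than Wwtr1, and 87.7% were lower than Yap1.
The ratio of TAZ to YAP messages within a library does not depend on how the library was scaled. Per exon length, Wwtr1 stood at 0.618 of the level of Yap1 in MHs and at 0.39 in SHs. The log2 odds ratio of the reads of both genes was -0.665 (exact conditional 95% interval -1.03 to -0.29). Added together, both coactivators had 29.2 RPM in MHs and 32.3 RPM in SHs, and the interval of this log2 ratio, -0.0055 to 0.29, included 0. The balance between the coactivators thus differed by more than counting error.

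Yap1 lies on chromosome 9 (7931999 to 8004596 of mm10, minus strand), and Wwtr1 on chromosome 3 (57455649 to 57575910, minus strand). Cyr61, now named Ccn1, is also on chromosome 3 (145646976 to 145649981, minus strand). The 250 bases before the start of these genes are printed here because they are the 3 well counted genes whose levels differed between the libraries and whose promoters were at hand. They are RefSeq sequences of GRCm38.p6, chr9:8004597-8004846, chr3:57575911-57576160 and chr3:145649986-145650235, each written 5′ to 3′ on the strand of the gene. Capitals mark GGAATG or its reverse complement CATTCC, the core that TEAD factors bind.
Yap1: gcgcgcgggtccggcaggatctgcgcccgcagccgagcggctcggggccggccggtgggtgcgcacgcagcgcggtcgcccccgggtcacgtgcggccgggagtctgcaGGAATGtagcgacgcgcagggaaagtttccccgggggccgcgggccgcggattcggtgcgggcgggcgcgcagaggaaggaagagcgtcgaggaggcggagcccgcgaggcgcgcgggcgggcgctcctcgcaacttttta
Wwtr1: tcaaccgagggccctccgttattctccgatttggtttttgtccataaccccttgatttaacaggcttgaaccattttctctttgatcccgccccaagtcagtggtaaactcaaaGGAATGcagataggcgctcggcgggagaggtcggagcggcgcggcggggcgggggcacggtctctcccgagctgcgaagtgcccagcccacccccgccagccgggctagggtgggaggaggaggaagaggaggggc
Cyr61: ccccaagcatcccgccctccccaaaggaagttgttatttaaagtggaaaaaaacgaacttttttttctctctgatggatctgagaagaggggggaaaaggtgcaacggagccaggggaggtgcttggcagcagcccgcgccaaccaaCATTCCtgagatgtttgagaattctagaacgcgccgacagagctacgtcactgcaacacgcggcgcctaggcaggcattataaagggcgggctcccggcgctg
Each of the 3 windows held 1 such motif, at 141 to 136 bases before the start in Yap1, 136 to 131 in Wwtr1 and 103 to 98 in Cyr61.

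RefSeq windows matched 7 of the 10 genes, and Tead1, Stk3 and Ctgf had no entry. The TEAD motif was in the windows of 4 genes, namely Yap1, Wwtr1, Cyr61 and Amotl2, and was not found in those of Stk4, Lats1 and Lats2. Of all 32851 windows of the same 250 bases, 12.6% held it on either strand. The motif and 10 bases on each side are shown in the orientation of GGAATG, with the motif in capitals, to let the 4 sites be compared.
Yap1, chr9:8004722-8004747: ggagtctgcaGGAATGtagcgacgcg
Wwtr1, chr3:57576031-57576056: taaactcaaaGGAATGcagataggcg
Cyr61, chr3:145650073-145650098: aaacatctcaGGAATGttggttggcg
Amotl2, chr9:102717729-102717754: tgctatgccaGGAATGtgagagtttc
In Cyr61 and Amotl2, the motif lay on the strand opposite to the gene, at 65 to 60 bases before the RefSeq start in Amotl2. That start lies downstream of the GENCODE start of Amotl2, and its window overlaps an annotated exon of the gene. The windows of Stk4 and Lats2 also lie downstream of the GENCODE starts of these genes, so the bases before those starts were not searched. An AP-1 motif, TGANTCA, which reads the same on both strands, was in 0 of the 9 windows of the 7 genes and in 6.75% of all windows. The 4 genes that share the TEAD motif did not share a direction, since Yap1 was higher, Wwtr1 and Cyr61 were lower, and the interval of Amotl2 included 0. A match of these letters describes the sequence and does not show that a factor binds there.

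The intervals of the core kinases all included 0. Stk4, which encodes MST1, was counted with 235 reads in MHs and with 604 in SHs, or 13.8 and 14.3 RPM. Its log2 ratio was 0.04 (-0.18 to 0.27). Stk3, which encodes MST2, had 93 and 224 reads, or 5.48 RPM in MHs and 5.29 in SHs. The log2 ratio was -0.06 (-0.41 to 0.31).
Lats1 was counted with 598 reads in MHs and with 1518 in SHs, which were 35.2 and 35.8 RPM. Its log2 ratio of 0.02 had the narrowest interval of the 4 kinases, -0.11 to 0.16. Lats2, a kinase gene that is itself induced by YAP, was counted with 88 reads in MHs and with 228 in SHs. Scaled to RPM, the levels were 5.18 and 5.38, with a log2 ratio of 0.05 (-0.31 to 0.43). Lats2 and Stk3, the kinase genes with the fewest reads, had the widest intervals.
Neither the balance between paralogs nor their sum differed beyond counting error. Per exon length, Lats2 stood at 0.154 of the level of Lats1 in MHs and 0.157 in SHs, with a log2 odds ratio of 0.03 (-0.36 to 0.43). Stk3 stood at 0.379 of the level of Stk4 in MHs and 0.355 in SHs, with a log2 odds ratio of -0.09 (-0.52 to 0.34). Lats1 and Lats2 together reached 40.4 RPM in MHs against 41.2 RPM in SHs, for a log2 ratio of 0.03 (-0.10 to 0.16). Stk3 and Stk4 together had 19.3 and 19.6 RPM, a log2 ratio of 0.02 (-0.17 to 0.21). Lats2 shares 2955 exonic bases with Gm49361, an annotated gene on the same strand that was not among the counted genes, so its reads are less certain.

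Tead1, which encodes a DNA-binding partner of YAP and TAZ, was counted with 64 reads in MHs and with 203 in SHs, or 3.77 and 4.79 RPM. This was the highest log2 ratio of the 10 genes, 0.34, but the interval of -0.07 to 0.78 included 0. Tead3, with 159 reads in MHs and 337 in SHs, was at -0.24 (-0.51 to 0.05). Tead2 had 1 read in each library, and Tead4 had 1 in MHs and 3 in SHs, so both were at or under the floor. The 4 Tead genes together reached 13.3 RPM in MHs against 12.8 RPM in SHs, for a log2 ratio of -0.05 (-0.27 to 0.19). Vgll4, which encodes a competitor of YAP for TEAD, had a log2 ratio of 0.07 (-0.11 to 0.24). Vgll1, Vgll2 and Vgll3 had 0 reads in both libraries, which allows up to 0.177 RPM in MHs and 0.0708 in SHs.

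The targets among the 10 genes differed from each other. Cyr61, which encodes a secreted matricellular protein, was counted with 766 reads in MHs and with 1164 in SHs, whose library was deeper. Scaled, its levels were 45.1 and 27.5 RPM, a log2 ratio of -0.72 (-0.85 to -0.58). Only 1.34% of the 9608 genes with at least 200 reads had a lower ratio.
Ctgf, now named Ccn2 (chromosome 10, 24595442 to 24598683, plus strand), encodes a matricellular protein of the same family. It was counted with 11 reads in MHs and with 1 in SHs, or 0.648 and 0.0236 RPM. The interval of its log2 ratio of -4.26 was wide, from -10.21 to -2.0, and the level in SHs was under the floor. It was the only one of the 10 genes that was at least 2-fold lower, and 0 were 2-fold higher, against 4.46% and 2.0% of all genes tested. Among genes with 10 or more but fewer than 200 reads, 10.4% were 2-fold lower. Ctgf shares 665 exonic bases with Gm15270 on the opposite strand, which had 1 read in MHs and 2 in SHs.
Amotl2 (chromosome 9, 102716672 to 102733418, plus strand) encodes an angiomotin that binds YAP and is also a YAP target. It was counted with 694 reads in MHs and with 1584 in SHs, or 40.9 and 37.4 RPM. Its log2 ratio of -0.13 had an interval of -0.26 to 0.0025, which only just included 0.
The targets were then set against each other within each library, in pairs chosen after their values were seen. Per exon length, Cyr61 stood at 3.44 times the level of Amotl2 in MHs and 2.29 times in SHs, with a log2 odds ratio of the reads of -0.59 (-0.77 to -0.40). Relative to Amotl2, Cyr61 was lower in SHs beyond counting error, which for a pair chosen in this way is a description only. The interval of Cyr61 also did not overlap that of Lats2, the remaining target among the 10 genes.

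**Figure D2:**
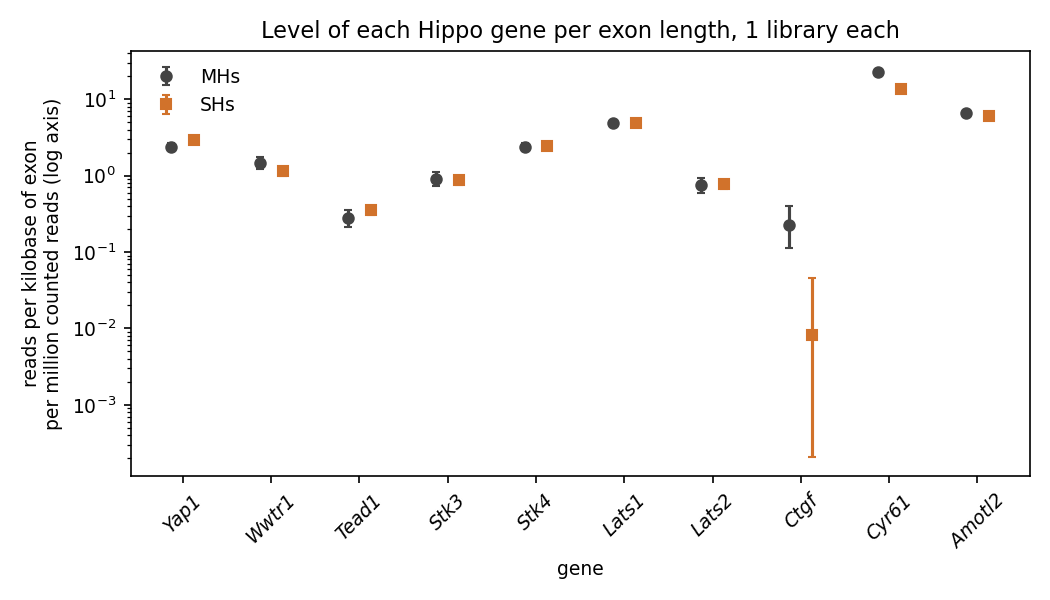
Level of each of the 10 Hippo genes in RPM per kilobase of exon, on a log axis, for MHs (grey circles) and SHs (orange squares). Bars are 95% Poisson intervals of 1 library each, and Cyr61 is highest in both, at 22.3 in MHs and 13.6 in SHs, whereas Ctgf is lowest in both.

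Levels were compared between genes per exon length, in RPM per kilobase of exon (RPKM), with 95% Poisson intervals. In SHs the order from the highest was Cyr61, Amotl2, Lats1, Yap1, Stk4, Wwtr1, Stk3, Lats2, Tead1 and Ctgf. Cyr61 had 22.3 RPKM in MHs (20.8 to 24.0) and 13.6 in SHs (12.8 to 14.4), above 88.7% and 84.2% of the 15060 measured genes with an annotated length. Amotl2 followed with 6.50 RPKM in MHs and 5.95 in SHs, and Lats1 with 4.83 and 4.91.
Yap1 had 2.39 RPKM in MHs (2.16 to 2.65) and 2.90 in SHs (2.74 to 3.08), near the middle of all measured genes, with 52.5% of them lower in MHs and 56.6% in SHs. Stk4, its neighbour in the order, had 2.36 RPKM in MHs (2.07 to 2.68) and 2.43 in SHs (2.24 to 2.64). The intervals of Yap1 and Stk4 overlapped in MHs and not in SHs. Wwtr1 had 1.48 RPKM in MHs (1.23 to 1.77) and 1.13 in SHs (0.99 to 1.29).
Stk3 and Lats2 had overlapping intervals in both libraries, with 0.896 (0.723 to 1.10) and 0.744 RPKM (0.596 to 0.916) in MHs, and 0.865 (0.755 to 0.986) and 0.772 (0.675 to 0.879) in SHs. Tead1 had 0.278 RPKM in MHs (0.214 to 0.355) and 0.353 in SHs (0.306 to 0.405). Ctgf had 0.226 RPKM in MHs (0.113 to 0.405), which overlapped that of Tead1, and 0.00825 in SHs (0.000209 to 0.046), which did not. These orders depend on the length used. With the longest transcript as the length, Yap1 had 5.09 RPKM in SHs and passed Lats1, which had 4.97, with overlapping intervals. Yap1 then had 4.19 RPKM in MHs (3.78 to 4.64), which no longer overlapped the 2.65 RPKM of Stk4 (2.32 to 3.01). With this length Stk3, at 1.605 RPKM in SHs (1.40 to 1.83), passed Wwtr1, at 1.15 (1.01 to 1.31). The intervals of Stk3 and Lats2 then no longer overlapped in either library.

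A further 55 Hippo genes were examined in 4 lists, of which 45 had at least 10 reads. Their median log2 ratio was -0.05, with 10 lower and 1 higher by at least 1.5-fold, against 6.2% lower and 3.5% higher among all genes tested.
Of the 20 upstream regulators, all with at least 10 reads, 3 were lower and 1 was higher, against the same 6.2% and 3.5%, and the median was 0.03. The 3 that were lower, Amotl1, Fat4 and Dchs1, reached 10 reads through MHs. Sav1, Nf2, Mob1a and Mob1b had intervals that included 0. Sav1, the scaffold of MST kinases, was at 0.05 (-0.36 to 0.50), and Nf2, which encodes the upstream activator merlin, was at -0.03 (-0.24 to 0.18). Mob1a and Mob1b, adaptors of LATS kinases, were at -0.16 (-0.33 to 0.02) and 0.04 (-0.11 to 0.19). Wwc1, which encodes the scaffold KIBRA, was counted with 1136 reads in MHs and with 3503 in SHs, for a log2 ratio of 0.31 (0.21 to 0.40). Taok3, a kinase gene, was at 0.42 (0.29 to 0.56), and Limd1, which encodes an inhibitor of LATS, was at -0.25 (-0.38 to -0.11). Ajuba went the other way from Limd1, at 0.36 (0.03 to 0.71).
The angiomotin genes went apart. Amot was counted with 78 reads in MHs and with 299 in SHs, for a log2 ratio of 0.61 (0.26 to 1.00), and was the one regulator that was higher by at least 1.5-fold. Amotl1 was counted with 53 reads in MHs and with 3 in SHs, for a log2 ratio of -5.25 (-7.79 to -3.84). Amotl2 lay between them, at -0.13. The protocadherin genes Fat4 and Dchs1, which encode a receptor and its ligand, were the other regulators that were lower. Fat4 was counted with 33 reads in MHs and with 6 in SHs, and Dchs1 had 44 and 8, with log2 ratios of -3.68 (-5.32 to -2.51) and -3.71 (-5.08 to -2.68).
Of the 10 genes for the retention and turnover of YAP, 1 was lower and 0 were higher by at least 1.5-fold, with a median of 0.02. The shares among all genes tested were again 6.2% and 3.5%. The gene that was lower was Csnk1e, a casein kinase gene with 51 reads in MHs and 80 in SHs, at -0.67 (-1.19 to -0.13). The genes Ywhab, Ywhae, Ywhag, Ywhah, Ywhaq and Ywhaz encode 14-3-3 proteins, which hold phosphorylated YAP in the cytoplasm. Together they reached 329.8 RPM in MHs against 361.6 RPM in SHs, for a log2 ratio of 0.13 (0.09 to 0.18). Ywhab had the highest ratio, 0.35 (0.21 to 0.50), and Ywhaq the lowest, -0.12 (-0.31 to 0.08).

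**Figure D3:**
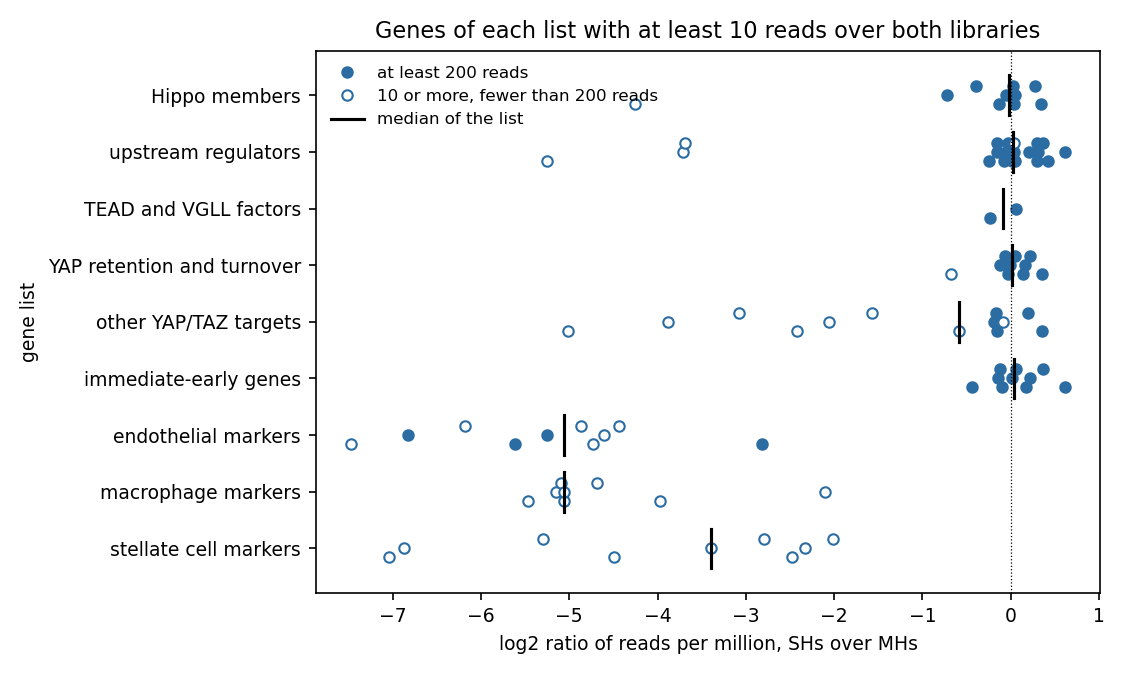
Log2 ratio of RPM, SHs over MHs, for the genes of each list that reached 10 reads over both libraries. Filled points have at least 200 reads, open points 10 or more but fewer than 200, and black bars are medians, which are near 0 for the Hippo genes, at -0.58 for the other YAP/TAZ targets and at -5.06 for endothelial markers.

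The other targets of YAP and TAZ were 18 genes, of which 13 had at least 10 reads. Of these, 6 were lower by at least 1.5-fold, all 6 also by 2-fold, and 0 were higher. All genes tested gave 6.2% lower and 3.5% higher at 1.5-fold, and 4.46% and 2.0% at 2-fold. Of the 6, Axl and Igfbp3 reached 10 reads through MHs, where they were higher, and Ankrd1 only over both libraries. The number of lower targets is therefore a description only. The median log2 ratio of the 13 targets was -0.58. Over the targets with at least 200 reads, the median was -0.15, so the size of the median rests on genes with few reads.
The lower targets were scarce in both libraries. Axl, which encodes a receptor tyrosine kinase, was counted with 26 reads in MHs and with 4 in SHs, for a log2 ratio of -3.88 (-6.00 to -2.49). Ankrd1 was counted with 7 reads in MHs and with 4 in SHs, for a log2 ratio of -2.06 (-4.35 to -0.15). Nt5e, which encodes the ectonucleotidase CD73, had 52 and 24 reads, a log2 ratio of -2.42 (-3.20 to -1.71). Igfbp3 was counted with 19 reads in MHs and with 1 in SHs, Ccdc80 had 35 and 10, and Ptpn14 had 18 and 15.
The targets with more reads did not share this difference. Gadd45a, a stress-induced growth arrest gene, was counted with 513 reads in MHs and with 1639 in SHs and was higher, at 0.36 (0.21 to 0.50). Dock5 was at -0.19 (-0.33 to -0.03), Nuak2 at -0.17 (-0.40 to 0.07), Crim1 at -0.15 (-0.42 to 0.13) and Asap1 at 0.20 (-0.10 to 0.51).

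Among Hippo genes with at least 10 reads, all that differed by at least 2-fold had fewer than 200 reads. Of the 41 Hippo genes with at least 200 reads, 9 of the 10 first named among them, 0 were 2-fold lower or higher, and their log2 ratios ran from -0.72 to 0.61. Among all genes with at least 200 reads, 0.812% were 2-fold lower and 0.354% were higher. Of the 14 Hippo genes with 10 or more but fewer than 200 reads, 10 were 2-fold lower and 0 were higher, against 10.4% and 4.67% of all genes with so few reads. None of these 10 had more than 53 reads in MHs or 24 in SHs, or more than 0.48 RPKM in MHs. Since most of them reached 10 reads through MHs, where they were higher, their number is a description only.
Markers of other liver cells differed in the same direction. Of the endothelial, macrophage and stellate cell markers, 27 of 29 reached 10 reads, and these 27 were at least 2-fold lower in SHs. The share was 4.46% of all genes tested and 10.4% of those with 10 or more but fewer than 200 reads. Most of the markers reached 10 reads through MHs, where they were higher, and only SHs were sorted against CD31 and CD45. Their number is therefore a description only. The 2 left out were Marco and Col1a1, and Col1a1, with 1 read in MHs and 6 in SHs, had an interval that included 0. The 10 endothelial markers summed to 95.1 RPM in MHs against 4.60 in SHs, the 9 macrophage markers to 21.7 against 0.756, and the 10 stellate cell markers to 22.4 against 2.29. Pecam1, which encodes the sorting marker CD31, was counted with 73 reads in MHs and with 8 in SHs, and Ptprc, which encodes CD45, had 9 and 5. Lyve1, Marco and Colec11 had 0 reads in SHs, whereas Stab2, with 119 reads, Reln, with 64, and Csf1r, with 8, had the most of their lists there. The part of these cells in the lower levels of Ctgf, Cyr61, Wwtr1, Amotl1, Fat4, Dchs1 and the scarce targets was not tested.

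**Figure D4:**
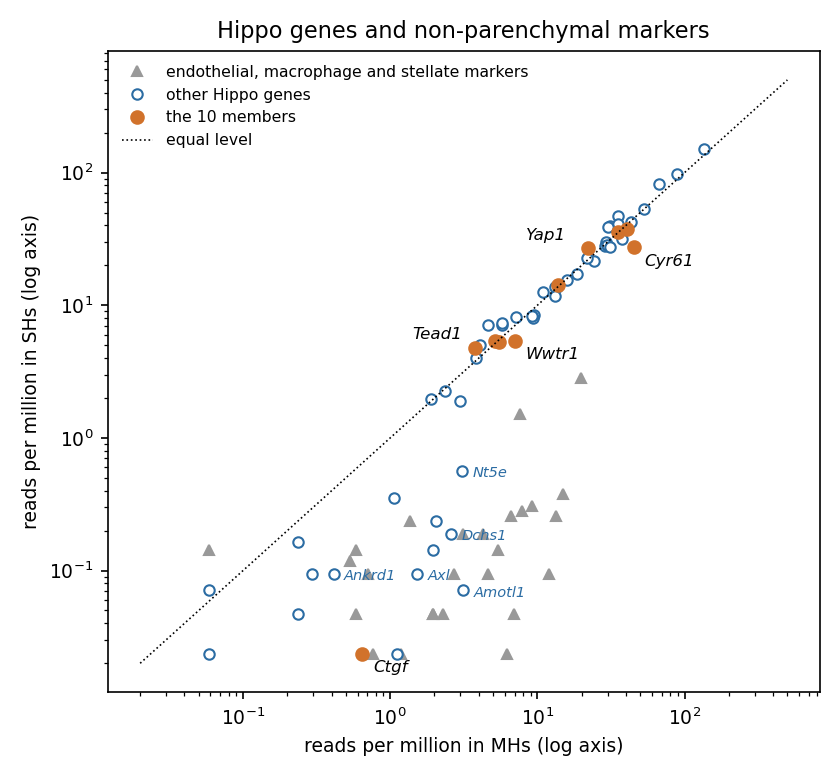
RPM in SHs (y) against MHs (x), both on log axes, for the 10 Hippo genes (orange), the other Hippo genes (open blue) and the endothelial, macrophage and stellate cell markers (grey triangles). Genes at 0 reads in a library, 6 other Hippo genes and 3 markers, cannot be shown, and Ctgf lies among the markers and scarce targets, far under the line of equal level, while the other 9 of the 10 lie much closer to it.

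Cyr61 is also known as an immediate-early gene, which cells switch on rapidly after stimulation, so a list of immediate-early genes was set beside it. The 10 of these genes with at least 10 reads had a median log2 ratio of 0.04, and ranged from -0.43 for Btg2 to 0.61 for Fos. Jun, with the most reads of the list in SHs, was at 0.18 (0.14 to 0.21), and Egr1 was at -0.10 (-0.18 to -0.02). The log2 ratio of Cyr61, -0.72, was lower than that of each of these 10 genes. Ier3, the gene of the list with fewer than 10 reads, had 4 in each library and a lower ratio, -1.32 (-3.74 to 1.11). Whether the level of Cyr61 followed the immediate-early genes was not tested.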

How the data were processed

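Poly(A) RNA of 1 sample of MHs and 1 sample of SHs was sequenced on the Ion Proton. For both, the authors deposited whole read counts per gene symbol, without normalization, for the mm10 build. Their methods describe trimming, alignment in CLC Genomics Workbench with several hits allowed per read, and RPKM. The program and annotation behind the deposited counts were not given in the sources used here, so reads of paralogs and overlapping genes are uncertain.

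RPM were computed over all counted reads, and log2 ratios with 0.5 reads added per gene, using scipy 1.17.1, numpy 2.4.6 and pandas 2.3.3 under Python 3.11.15. Exon lengths and coordinates came from GENCODE M21 (mm10), in which 40307 of 43280 symbols had a unique gene, and TEAD and AP-1 motifs were searched on both strands of RefSeq promoter windows. Scaling by edgeR 4.0.16 (TMM) and DESeq2 1.42.0 was tried in R 4.3.3. The interval calculation was tested on simulated data. The members and lists were chosen with earlier results of these data known. Named were the 10 members, the extremes of each list among genes with at least 200 reads, genes past 1.5-fold with at least 50 reads, and set paralogs and partners. Fat4, Wwc1, Taok3, Ajuba, Igfbp3, Ccdc80, Ptpn14, Nuak2, Crim1, Asap1, Btg2, Fos, Egr1, Ier3, Lyve1, Marco, Colec11 and the genes of the last part were named after their values were seen.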

Additional observations from a re-analysis of the deposited data

How the results depend on the processing

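No paired analysis was possible because each condition had a single library, and no replicate could be left out. TMM scaling, DESeq2 size factors and a total that left out the 10 most counted genes shifted all genes by 0.0096, 0.0091 and 0.032 on the log2 scale. Under each of these scalings the same genes, Wwtr1, Ctgf and Cyr61, had an interval wholly under 0 and Yap1 one wholly above 0. Adding 2 reads to each count could not change this, because the intervals were computed from the counts without added reads. With 2 added reads, the log2 ratio of Ctgf was -3.43, and the median of the other YAP/TAZ targets was -0.73.

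At a threshold of 2-fold, 1 of the 10 genes was lower, 0 upstream regulators were higher and 0 genes of YAP retention and turnover were lower. Among all genes tested, 4.46% were lower and 2.0% were higher at this threshold. At any fold, 1 of the 10 genes was higher and 3 were lower, with 4 and 4 upstream regulators, 4 and 1 genes of YAP retention and turnover and 1 and 7 of the other targets, against 16.8% and 15.5% of all genes. The median of the other targets was -0.38 without a read minimum and -0.15 with at least 200 reads. The median of the 10 genes was 0.02 with at least 200 reads and 0.02 with the 10 most counted genes left out of the totals, against -0.02 as reported, so its sign changed. With the longest transcript as the length, 8 of the 10 genes had over 1 RPKM in SHs, against 6. Depth limits Ctgf and 11 of the 55 other Hippo genes, each with 3 or fewer reads in SHs.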

Other observations

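Markers of cholangiocytes, the liver cells in which YAP activity is known to be high, were mostly at the floor. Krt19 and Krt7, the keratins of bile ducts, had 1 read in each library, Epcam was seen in 6 reads of MHs and 1 of SHs, and Cftr had 1 and 0. Sox9, a transcription factor gene of bile ducts and of hepatocytes around the portal vein, was counted with 92 reads in MHs and with 325 in SHs, for a log2 ratio of 0.50 (95% interval 0.16 to 0.85). Spp1, which encodes osteopontin, had 136 and 271 reads and went the other way, at -0.33 (-0.63 to -0.02). These 2 genes and Yap1, Wwtr1 and Cyr61 therefore showed no common direction. Icam1, the gene of the marker by which SHs were selected, was at -0.24 (-0.54 to 0.08).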
